A study of Mus musculus with 3 samples.

Results

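Among 12421 droplets sequenced from mouse brains, 120 held CD3 chain or Trac RNA while lying in a cluster rich in macrophage and monocyte RNA. They were chosen as droplets of deposited cluster 2, from brains with metastases, in which the raw UMIs (unique molecular identifiers, each standing for a counted RNA molecule) of Cd3d, Cd3e, Cd3g and Trac summed to at least 2. The brain called metastasis 1 gave 53 of them and the brain called metastasis 2 gave 67, out of 1781 droplets of cluster 2 in these brains. They are called CD3-bearing droplets of cluster 2 here. Lyz2, the gene of macrophage lysozyme, had a UMI in 119 of the 120, and Ms4a7, a membrane protein gene of macrophages, in 90. Cd3d had a UMI in 75, Cd3e in 55, Cd3g in 76 and Trac in 67, and these 4 genes were what chose the droplets. The choice also required cluster 2, and the clusters were made from the same RNA, so Lyz2 and Ms4a7 describe the droplets and do not check their name independently.

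The study used CITE-seq, in which RNA and the DNA tags of bound antibodies are read from the same droplets. Brains with metastases came from female C57BL/6 mice aged 2 to 3 months, about 2 weeks after E0771, a mouse mammary carcinoma line, was injected into the carotid artery, and naive brains came from mice without tumours. Per the labels, 1 hemisphere was digested with papain, mononuclear cells were enriched on Percoll, and the cells of every brain were stained for 6 surface proteins (CD45, CD11b and CD86, and the T cell proteins CD3e, CD4 and CD25) and with a hashing antibody of their own before they were pooled for a single 10x run. The files hold 4 hashing antibodies, for 2 brains with metastases and 2 naive brains, while the design text speaks of 6 pooled samples. Apart from these antibodies, no label states that the brains were of separate animals or were handled on separate days. The p-values below rest on how the difference between sets of droplets varied between 2 suspensions, not on the spread between the suspensions themselves. That variation may be technical.

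T cells recognise peptides through a receptor of alpha and beta chains, whose constant parts are encoded by Trac and by Trbc1 or Trbc2. The receptor signals through the CD3 chains, encoded by Cd3d, Cd3e, Cd3g and Cd247, to the kinases Lck and Zap70 and the adaptor Lat. CD4 and CD8 are coreceptors of mostly separate T cell classes, which see peptides on MHC class II and class I. Monocytes enter a brain with tumour growth from the blood and can become macrophages, which take up dying cells, carry CD11b (encoded by Itgam) and present antigen on MHC class II. A droplet barcode collects whatever RNA and tags were inside the droplet, from as many cells or fragments as it held, and that number was not measured. In build GRCm38.p6, the RefSeq annotation places Cd3g (44969572 to 44980431), Cd3d (44981769 to 44987052) and Cd3e (44998735 to 45009663) side by side on chromosome 9, and Trac at 54220521 to 54224198 on chromosome 14.

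Most droplets with CD3 RNA lay in clusters 2 and 8: in the brains with metastases 120 were in cluster 2, 79 in cluster 8 and 19 in all other clusters. CD3-bearing droplets made up 7.38% of cluster 2 in metastasis 1 (95% interval 5.58 to 9.54) and 6.30% in metastasis 2 (4.92 to 7.94). All intervals on shares are exact Clopper-Pearson intervals, and they cover counting error only. In cluster 8, the lymphoid cluster, the shares were 15.8% in metastasis 1 and 20.7% in metastasis 2. In clusters 0, 1, 3, 4 and 5, whose droplets had a median of 10601.5 UMIs and should lack T cell RNA, 6 of 8306 droplets reached 2 CD3 UMIs, or 0.0722%. Cluster 12, a small cluster, had 3 of 41 over both brains (7.32%, interval 1.54 to 19.9), all in metastasis 1, so its share cannot be set above or below that of cluster 2. Cluster 2 had a median of 1547.5 UMIs in metastasis 1 and 1466 in metastasis 2, so CD3 RNA was seen far more often in it than in those large clusters, at a much lower depth. In naive brains cluster 2 held 15 droplets, and none reached 2 CD3 UMIs. Taken as 3 counts of the total, that allows a share of up to 20%, and the upper end of the exact interval is 21.8%. That number of droplets cannot show a share as small as that with metastases. In cluster 12 of the naive brains 4 of 93 droplets reached 2 CD3 UMIs (4.30%, interval 1.18 to 10.7), all in the brain called naive 2.

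At a common depth the share in cluster 2 lay above that in cluster 7, and its interval overlapped that of cluster 8. Each droplet was thinned to 2000 UMIs and shallower ones were left out. Of 615 droplets of cluster 2 with metastases, 57 still had 2 CD3 UMIs (9.27%, interval 7.10 to 11.8). In cluster 8 these were 9 of 63 (14.3%, interval 6.75 to 25.4), so the clusters cannot be ordered at this depth. None of 3151 droplets of cluster 0 did, for which 3 counts of the total give a limit of 0.0952% and the exact interval 0.117%. Cluster 12 had only 6 droplets of that depth, with none. In cluster 7, which has choroid plexus RNA, 3 of 226 did (1.33%, interval 0.275 to 3.83). Before thinning, the share in cluster 7 was 1.66% at a median of 3343 UMIs. Free RNA common to the pool was not modelled.

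**Figure D1:**
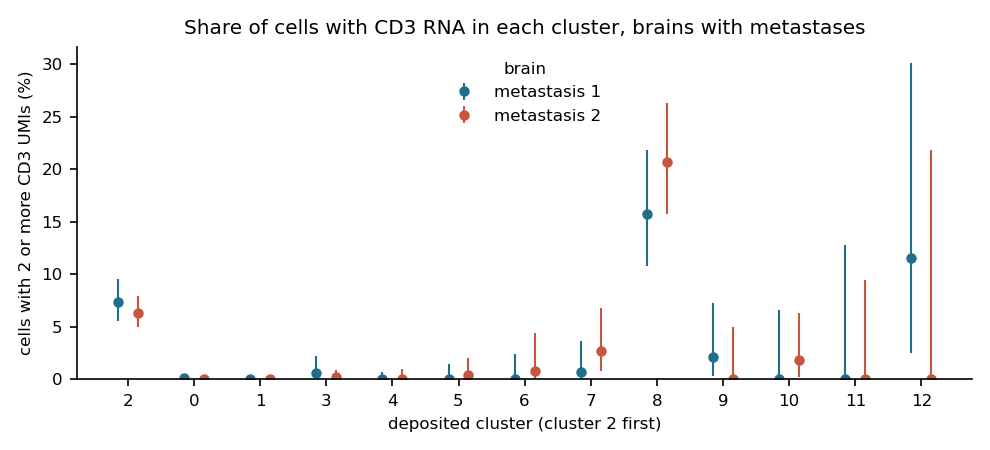
Percent of droplets with 2 or more CD3 UMIs in each deposited cluster of the brains with metastases, with exact 95% intervals. Cluster 2 stands at 7.38% in metastasis 1 and 6.30% in metastasis 2, below cluster 8 and above the large clusters 0, 1, 3 and 4, whose points lie below 1%, while cluster 12 is drawn from few droplets and has a wide interval.

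Most of the 120 droplets were close to the threshold. The 4 CD3 genes together had 2 UMIs in 53 droplets, 3 in 31, 4 in 4, 5 in 13 and 6 in 9, and the other 10 droplets had 7 or more. The median was 3 in each brain and the highest droplet had 21. These counts describe the choice and were not tested. As levels, Cd3g had 313 CPM in metastasis 1 and 270 CPM in metastasis 2, where CPM is a gene's UMIs per 1000000 UMIs summed over the droplets of a set in a brain. Cd3d had 298 and 266 CPM, Trac 197 and 239 CPM, and Cd3e 187 and 124 CPM in the same brains. CD3-bearing droplets of cluster 8 had higher CPM for each of the 4 genes in both brains, for example 520 and 849 CPM for Cd3g. Per droplet the gap was smaller, with 3.72 and 3.48 CD3 UMIs in CD3-bearing droplets of cluster 2 and 4.66 and 4.38 in those of cluster 8.

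The droplets just outside the threshold lay between the chosen ones and the rest of cluster 2. In metastasis 1, the summed UMIs of 20 T cell signalling and surface genes were 19.6 per 10000 UMIs in droplets with 3 or more CD3 UMIs, 10.7 in those with 2, 8.32 in those with 1 and 2.51 in those with 0. In metastasis 2 the same levels were 19.7, 10.5, 7.70 and 1.88. The median CD4 tag count followed in metastasis 2, at 11, 7.5, 2 and 1, while in metastasis 1 it was 10, 3, 3.5 and 1. The 20 macrophage genes stayed between 271 and 328 UMIs per 10000 in metastasis 1 and between 309 and 358 in metastasis 2 over these 4 steps. The threshold thus cut a graded range of T cell RNA: 44 droplets in metastasis 1 and 62 in metastasis 2 held exactly 1 CD3 UMI.

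CD3-bearing droplets of cluster 2 were deeper than the rest of the cluster. Their median was 3544 UMIs and 1494 genes in metastasis 1, and 3428 UMIs and 1452 genes in metastasis 2. The other droplets of cluster 2 had medians of 1466 and 1374 UMIs and of 772 and 737 genes. CD3-bearing droplets of cluster 8 were shallower still, with 940 and 831 UMIs. A droplet with more UMIs reaches 2 CD3 UMIs more easily, so depth is not independent of the choice. With 2 brains an exact paired permutation test cannot give a two-sided p below 0.5, so depth and tags are given as values of each brain. For this reason 360 other droplets of cluster 2 matched in UMIs, 3 for each CD3-bearing one and from the same brain, serve below as a comparison (medians 3463 and 3403 UMIs).

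Quality measures at matched depth were as follows. Mitochondrial UMIs had a median of 1.67% and 1.42% in CD3-bearing droplets, against 1.42% and 1.25% in the UMI-matched ones. Scrublet, which scores droplets by likeness to simulated mixtures of 2 cells, called 3 of the 120 CD3-bearing droplets (2.50%), 14 of the 360 UMI-matched ones (3.89%) and 7 of the 79 of cluster 8 (8.86%). The brain's own hashing tag had a median of 1097 and 1577 counts in CD3-bearing droplets, against 1034 and 1599 in UMI-matched ones. The summed hashing tags of the other brains had medians of 13 and 6 in CD3-bearing droplets, against 12 and 6 in UMI-matched ones.

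CD3-bearing droplets of cluster 2 carried both the myeloid CD11b antibody tag and, in many cases, T cell tags. Their median CD11b count was 295 in metastasis 1 and 290 in metastasis 2, against 360 and 409 in UMI-matched droplets, 130 and 146 in all other droplets of cluster 2, and 3 and 2 in CD3-bearing droplets of cluster 8. CD45, a surface protein of all leukocytes, had medians of 376 and 329, against 285 and 295 in UMI-matched droplets and 72 and 71.5 in CD3-bearing droplets of cluster 8. The CD11b counts were thus above those of all other droplets of cluster 2 and below those of equally deep ones, in both brains. The tag of CD86, a costimulatory ligand of myeloid cells, had medians of 14 and 16, against 14 and 17 in UMI-matched droplets and 2 in each brain for cluster 8.

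The CD4 tag was higher in CD3-bearing droplets of cluster 2 than in the other droplets of the cluster. Its median was 6 in metastasis 1 and 11 in metastasis 2, against 1 and 2 in UMI-matched droplets and 2 and 3.5 in CD3-bearing droplets of cluster 8. A tag was called high above the 99th percentile of the same tag in choroid plexus droplets (cluster 7) of the same brain. These cutoffs rest on the highest of 153 droplets in metastasis 1 and 148 in metastasis 2. They were 5.48 and 10.5 counts for CD4, 2 and 1.53 for CD3e, and 16 and 110.5 for CD11b. By that rule CD4 was high in 52.8% and 50.7% of CD3-bearing droplets of cluster 2, against 11.95% and 6.97% of UMI-matched droplets, 5.26% and 3.21% of all other droplets of cluster 2, and 31.0% and 24.0% of CD3-bearing droplets of cluster 8. Against cluster 8 the direction depended on the scale. As a share of a droplet's 6 tags, CD4 had medians of 0.804% and 1.35% in CD3-bearing droplets of cluster 2, against 0.236% and 0.179% in UMI-matched ones and 2.2% and 4.10% in those of cluster 8. The CD3e tag had counts near 0 in all sets, with medians of 2 and 1 in CD3-bearing droplets of cluster 2 and 0 in the other droplets of cluster 2. It was high in 34.0% and 34.3% of CD3-bearing droplets of cluster 2, against 8.18% and 9.95% of UMI-matched ones. In CD3-bearing droplets of cluster 8 it was high in 13.8% and 28.0%, with medians of 0 and 1. The antibody tags took no part in the choice, and both brains had the same direction for CD4 and CD3e.

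High CD11b together with a high CD4 or CD3e tag was found in 68 of the 120 CD3-bearing droplets of cluster 2 (56.7%). The share was 60.4% in metastasis 1 and 53.7% in metastasis 2, under the unlike CD11b cutoffs of 16 and 110.5 counts. For CD3e, high stood for counts above only 2 and 1.53. The same combination was found in 44 of 360 UMI-matched droplets (12.2%), 102 of 1661 other droplets of cluster 2 (6.14%) and 6 of 79 CD3-bearing droplets of cluster 8 (7.59%). Within the chosen droplets T cell RNA did not follow the CD4 tag in the same direction in both brains. Droplets with a high CD4 tag had 18.3 T cell signalling UMIs per 10000 in metastasis 1 and 14.7 in metastasis 2, against 14.3 and 16.6 in those without. Among droplets of cluster 2 with 0 CD3 UMIs, those with a high CD4 tag had 7.36 T cell signalling UMIs per 10000 in metastasis 1 (23 droplets) and 3.19 in metastasis 2 (22 droplets), against 2.15 and 1.82 in those without. Their median depth was also higher, at 2494 and 2384.5 UMIs against 1382 and 1318.5.

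**Figure D2:**
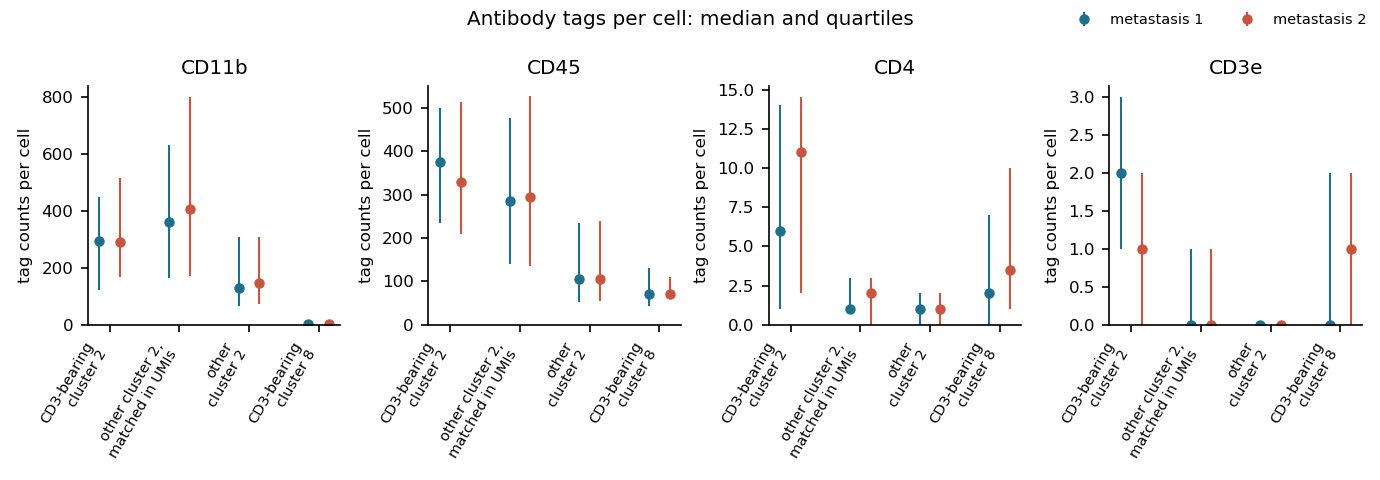
Antibody tag counts per droplet (vertical axes, linear) for CD11b, CD45, CD4 and CD3e in 4 sets of droplets, with the median as a point and the quartiles as a line for each brain. CD3-bearing droplets of cluster 2 have CD11b medians of 295 and 290, between those of the UMI-matched and of all other droplets of cluster 2, and CD4 medians of 6 and 11, above the counts of the other 3 sets in both brains.

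T cell genes beyond the 4 used in the choice were higher in CD3-bearing droplets of cluster 2 than in the other droplets of the cluster. UMIs were summed per brain and set and tested with edgeR's quasi-likelihood test, with the brain as a block and Benjamini-Hochberg adjustment over 6842 genes. Of these genes 95 were higher (1.39%) and 19 were lower (0.278%) at an adjusted p under 0.05. Of the 20 listed T cell signalling and surface genes, 19 passed the filter on low counts, 17 of these were higher and none was lower. Their median log2 difference was 2.79, against -0.01 over all genes tested. A gene low in the other droplets could enter the test through the CD3-bearing sums alone, which favours higher values among the T cell genes tested, so counts and medians of these lists are descriptions. Without the filter 14 signalling genes were higher. Droplets chosen for CD3 RNA could be expected to bring other T cell RNA with them, so this count describes what accompanied the choice. Of the 95 higher genes, 35 were in one of 7 T cell lists and 60 were in none of them. The spread behind these p-values rests on 2 brains, and with DESeq2 in place of edgeR 25 genes were higher, 9 of them signalling genes, and 3 were lower.

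The T cell receptor beta constant genes were among the clearest. Trbc2 had 268 and 301 CPM in CD3-bearing droplets of cluster 2, against 25.6 and 25.9 CPM in the other droplets of the cluster (log2 difference 3.42, SE 0.22, adjusted p = 5.8e-16). Trbc1 had 101 and 100 CPM, against 18.8 and 16.2 CPM (2.48, adjusted p = 1.5e-07). The 2 genes are near-identical copies, so the division of UMIs between them is uncertain. Cd247, the zeta chain that carries most of the receptor's signalling motifs, had 40.4 and 42.5 CPM, against 8.28 and 2.45 CPM (3.02, adjusted p = 5.9e-05, and 0.246 with DESeq2). At least 1 UMI of Trbc1 or Trbc2 was present in 74 of the 120 droplets.

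The signalling genes moved in the same direction. Lat, the adaptor phosphorylated after receptor engagement, had 156 and 166 CPM, against 18.8 and 12.2 CPM (log2 difference 3.38, SE 0.29, adjusted p = 3.5e-12). Lck, the kinase bound to the coreceptors, had 121 and 81.1 CPM, against 9.78 and 12.2 CPM (3.06). Thy1, a surface glycoprotein of mouse T cells, had 126 and 112 CPM, against 9.03 and 8.81 CPM (3.66). In each of these genes both brains' CD3-bearing sums lay above both brains' other sums. Ptprcap, which associates with CD45 (3.00), Icos, a costimulatory receptor (3.43), and Cd2, an adhesion receptor (3.33), were higher too. Ltb, a lymphotoxin subunit, had a log2 difference of 2.79 and Ms4a4b, a membrane protein of T cells, 1.98. Cd27 (1.32, adjusted p = 0.13) and Txk (0.35, adjusted p = 0.92) did not pass, and Bcl11b had too few UMIs to be tested. Against UMI-matched droplets 14 of 15 signalling genes tested were higher, with a median of 2.99, in a fit in which 1.26% of 5000 genes were higher. With DESeq2 on the same droplets 6 signalling genes were higher.

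Relative to CD3 RNA, T cell genes were at levels of the same order in both clusters. Per 100 UMIs of the 4 CD3 genes, the 20 signalling genes had 166 and 173 UMIs in CD3-bearing droplets of cluster 2 and 145 and 141 in those of cluster 8. The 3 receptor genes that were not used in the choice (Cd247, Trbc1 and Trbc2) had 41.1 and 49.4 UMIs, against 46.7 and 40.2 in cluster 8. Both sets were chosen by the same rule and the clusters were made from this RNA, so these ratios are a description. UMI-matched droplets of cluster 2 also held UMIs of the 20 signalling genes. They had 1.31 and 0.791 per droplet in the brains, against 6.15 and 6.02 in CD3-bearing droplets of cluster 2. The part of such UMIs in the ratios of cluster 2 was not tested. Thy1 had 12.7 and 12.4 UMIs per 100 CD3 UMIs, against 14.1 and 11.4 in cluster 8. Lat had 15.7 and 18.5, against 10.4 and 10.5. Lck had 12.2 and 9.01, against 5.93 and 6.85. The ranges of the brains overlapped between clusters for Thy1 and not for Lat or Lck. In CPM the order was the reverse, with 1645 and 1555 CPM for the 20 genes in cluster 2 and 2426 and 3451 CPM in cluster 8, where the droplets held fewer other UMIs.

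**Figure D3:**
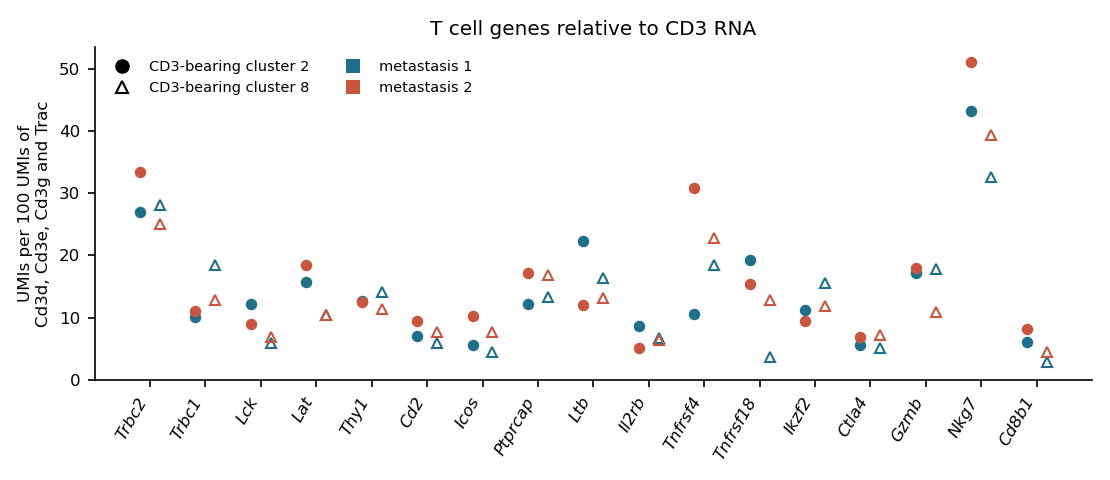
UMIs of T cell genes per 100 UMIs of Cd3d, Cd3e, Cd3g and Trac (vertical axis, linear), in CD3-bearing droplets of cluster 2 (filled circles) and of cluster 8 (open triangles), 1 symbol per brain. The genes were taken from the fixed lists, and the symbols of the clusters intermingle for Thy1, Ptprcap and Ctla4, while Lat lies at 15.7 and 18.5 in cluster 2 against 10.4 and 10.5 in cluster 8.

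Among CD3-bearing droplets, the CD4 tag was lower where CD8 RNA was found, in both clusters. Cd8a and Cd8b1, the chains of CD8, were higher in CD3-bearing droplets than in the other droplets of cluster 2, with log2 differences of 3.2 (adjusted p = 4.4e-05, and 0.578 with DESeq2) and 3.76 (9.2e-09). A UMI of either gene was found in 24 of the 120 droplets, 11 in metastasis 1 and 13 in metastasis 2. In those 24 the median CD4 tag was 2 and 1 in the brains, against 7 and 11 in the other 96. CD4 was high in 6 of the 24 (25%, interval 9.77 to 46.7) and in 56 of the 96 (58.3%, interval 47.8 to 68.3). These intervals pool the droplets of both brains, and within each brain they overlapped. In metastasis 1 CD4 was high in 3 of 11 (27.3%, interval 6.02 to 61.0) and 25 of 42 (59.5%, interval 43.3 to 74.4). In metastasis 2 it was high in 3 of 13 (23.1%, interval 5.04 to 53.8) and 31 of 54 (57.4%, interval 43.2 to 70.8). In cluster 8 the CD4 tag was high in 0 of 14 CD3-bearing droplets with a Cd8 UMI and in 21 of 65 without (32.3%). The other droplets of cluster 2 went the opposite way, with a high CD4 tag in 9 of 22 with a Cd8 UMI (40.9%) and in 3.54% of the 1639 without, at median depths of 3114 and 1398 UMIs. Among the CD3-bearing droplets of cluster 2 median depths were alike, at 3430.5 UMIs with a Cd8 UMI and 3477 without. Cd4 RNA itself had a UMI in only 9 of the 120 droplets, so at this depth the antibody tag detected CD4 in many more of them than the RNA did.

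**Figure D4:**
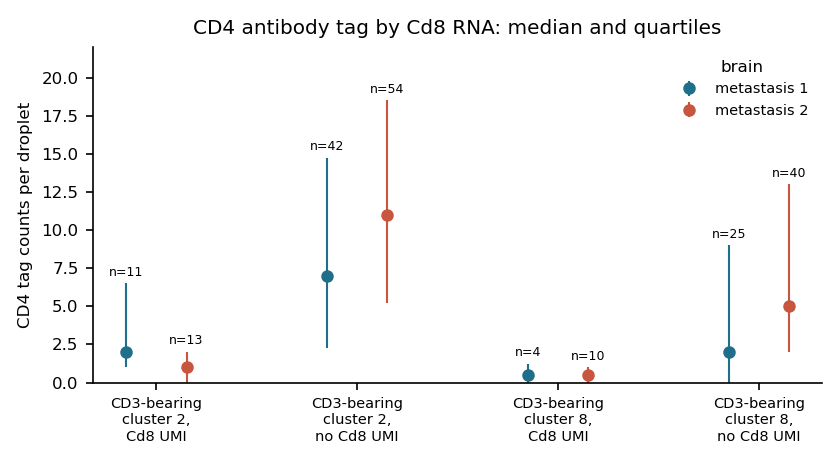
CD4 tag counts per droplet (vertical axis, linear; median and quartiles) in CD3-bearing droplets of clusters 2 and 8, split by whether a Cd8a or Cd8b1 UMI was present. In cluster 2 droplets with Cd8 RNA have medians of 2 and 1, and those without have 7 and 11.

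Genes of cytotoxic lymphocytes were partly higher. Of 15 listed, 8 could be tested, 5 of these were higher and none lower. Nkg7, a granule membrane protein gene, had 429 and 459 CPM, against 88.8 and 77.3 CPM in the other droplets of cluster 2 (2.39, SE 0.16, adjusted p = 1.2e-15). Gzmb, encoding granzyme B, had 172 and 162 CPM, against 28.6 and 22.03 CPM (2.69), and 19 of its 76 UMIs came from a single droplet. Gzma, encoding granzyme A, had 80.8 and 120 CPM, against 82.8 and 83.2 CPM (0.26, adjusted p = 0.81). Ccl5, a chemokine made by T cells and by myeloid cells, differed little in size (0.51, adjusted p = 0.03, and 0.19 with DESeq2). Of 3 genes of natural killer cells tested none was higher, and Ncr1, which defines those cells, had 2 UMIs in all 120 droplets.

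Xcl1, a chemokine gene of CD8 T cells and natural killer cells, had the largest difference of the genes named by size, and most of its UMIs came from a single droplet. Its log2 difference was 4.67 (SE 0.37, adjusted p = 4.1e-13), with 7 and 79 UMIs in the CD3-bearing droplets of the brains. In metastasis 2, 63 of the 79 came from the droplet with the most CD3 UMIs. Without that droplet the difference was 2.78 and still passed (adjusted p = 3.6e-07). With all droplets and DESeq2 the adjusted p was 0.911. That droplet had 8646 UMIs, among them 21 of the CD3 genes, 25 of Trbc2, 5 of Cd8a, 8 of Cd8b1 and 21 of Nkg7. It also had 20 UMIs of C1qa, 15 of Lyz2 and 12 of Ms4a7, and tag counts of 84 for CD11b, 332 for CD45 and 1 for CD4. Scrublet did not call it.

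Of 9 listed genes of activated and regulatory T cells, 7 could be tested and 6 of these were higher. Most were low in the other droplets, so that they entered the test through the CD3-bearing sums. Tnfrsf4, encoding the costimulatory receptor OX40, had 106 and 278 CPM, against 6.02 and 10.8 CPM in the other droplets of cluster 2 (4.48, SE 0.30, adjusted p = 1.1e-15). Tnfrsf18, encoding GITR, had 192 and 139 CPM, against 11.3 and 15.7 CPM (3.48). Ikzf2, encoding the transcription factor Helios, had 111 and 84.9 CPM, against 9.03 and 9.30 CPM (3.31). Ctla4, an inhibitory receptor, was higher by 3.34 and Tnfrsf9 by 2.81. Capg, which myeloid cells also express, did not differ detectably (-0.02, adjusted p = 0.98). Foxp3, the defining transcription factor of regulatory T cells, had 6 UMIs in 5 droplets and was too low to test. A UMI of Foxp3, Il2ra or Ikzf2 was present in 29 of the 120 droplets. Per 100 CD3 UMIs, Tnfrsf18 had 19.3 and 15.5 UMIs in cluster 2, against 3.70 and 12.8 in CD3-bearing droplets of cluster 8, and Ikzf2 had 11.2 and 9.44, against 15.6 and 11.9.

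Genes of resting T cells and other inhibitory receptors were mostly not called. Tcf7, a transcription factor of naive and memory T cells, was higher (2.58, adjusted p = 0.036, and 0.9999 with DESeq2), as was Dapl1 (3.81). Both rest on few UMIs. Tcf7 had 4 and 4 in the CD3-bearing droplets of the brains, against 5 and 4 in the other droplets. Dapl1 had 7 and 4, against 3 and 2. Ccr7, a chemokine receptor that guides T cells to lymph nodes, did not pass (1.5, adjusted p = 0.066). Against UMI-matched droplets none of 3 naive and memory T cell genes tested was higher, with a median of -0.05. Of 4 inhibitory receptor genes tested, Ctla4 was the 1 that passed. Pdcd1, encoding PD-1, had 10 UMIs in metastasis 2 and 0 in metastasis 1 and could not be tested.

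The myeloid side of these droplets was close to that of the rest of cluster 2. Both sets had to lie in cluster 2, and the clusters were made from this RNA, so this likeness is a description. All 20 macrophage genes were tested against the other droplets of the cluster, none was called in either direction, and their median log2 difference was -0.14. Nor was any of 7 MHC class II genes, with a median of -0.17. Lyz2 had 16119 and 9598 CPM in CD3-bearing droplets, against 18517 and 10916 CPM in the other droplets and 990 and 648 CPM in CD3-bearing droplets of cluster 8. Ms4a7 had 787 and 1189 CPM, against 804 and 985 CPM, and 24.8 and 33.5 CPM in cluster 8. C1qb, a chain of the complement component C1q, had 913 and 2022 CPM, against 1225 and 2079 CPM, and 37.1 and 55.9 CPM in cluster 8. The brains differed more from each other than the sets of droplets did: Lyz2 was higher in metastasis 1 and C1qb in metastasis 2, in CD3-bearing and in other droplets.

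Against droplets of the same depth, small decreases of macrophage genes passed the edgeR test. Of the 20 genes 7 were lower and none higher, in a fit in which 1.84% of genes were called, 0.580% as lower, and their median log2 difference was -0.30. C1qb fell by 0.53, Ccl7, a monocyte-attracting chemokine, by 0.63 and Apoe, a lipid carrier, by 0.27. Lyz2 (-0.16, adjusted p = 0.087) and Ms4a7 (-0.19, adjusted p = 0.54) did not pass. Of 7 MHC class II genes 4 were lower, with a median of -0.39, and Cd74, the invariant chain, fell by 0.48 (adjusted p = 8.5e-15). With DESeq2 on the same droplets no macrophage gene and 1 MHC class II gene, Cd74, was called lower. Summed over the lists, macrophage genes had 28347 and 31858 CPM in CD3-bearing droplets, against 32262 and 38135 CPM in UMI-matched ones, and MHC class II genes had 15453 and 17185 CPM, against 17837 and 26066 CPM. All genes of a set share its CPM total, so a larger share of T cell RNA leaves less for the others, and its part in these decreases was not tested.

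**Figure D5:**
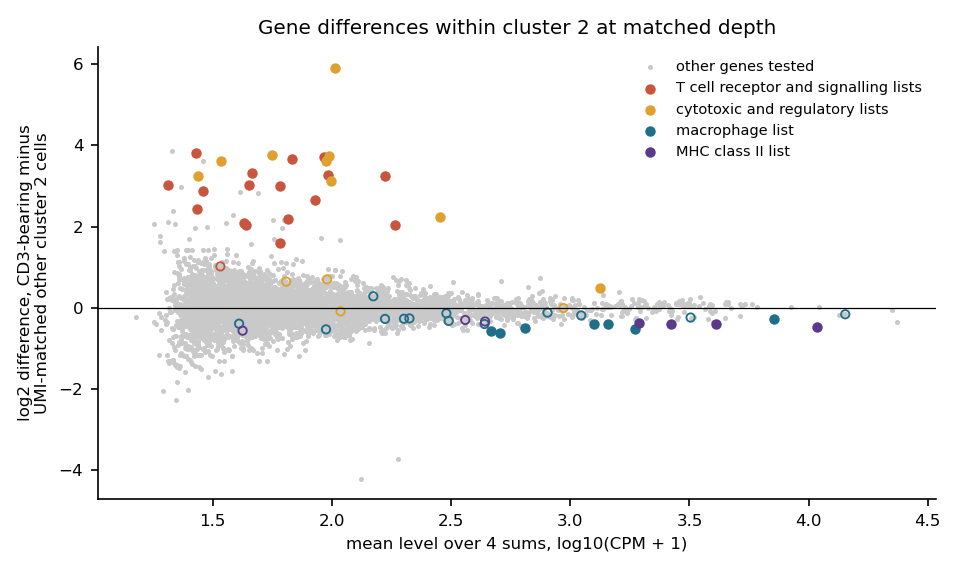
Log2 difference of each gene between CD3-bearing droplets of cluster 2 and UMI-matched other droplets of cluster 2 (vertical axis), against the mean level as log10(CPM + 1). Filled symbols passed an adjusted p of 0.05 and open ones did not. Receptor and signalling genes lie above 0, with a median of 2.99 for the signalling list, and macrophage and MHC class II genes lie mostly just below 0, with medians of -0.30 and -0.39.

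Most of the droplets held RNA of both lineages individually. At 2000 UMIs per droplet, which left 99 of the 120, a UMI of the T cell signalling list was found in 92.9% of CD3-bearing droplets of cluster 2, against 30.6% of 516 other droplets of cluster 2, 14 of 16 CD3-bearing droplets of cluster 8, and 2.06% of cluster 0 (3151 droplets). Trbc1 or Trbc2 was found in 45.5%, against 7.36% of the other droplets and 0.0952% of cluster 0. For Lyz2 the share was 98.99%, against 99.03% of the other droplets, 5 of 16 in cluster 8 and 7.65% of cluster 0. For Ms4a7 it was 70.7%, against 69.2%, 1 of 16 and 0.508%. C1qa, C1qb or C1qc was found in 80.8%, against 82.6% of the other droplets. Ly6c2, a marker of inflammatory monocytes, was found in 68.7% (interval 58.6 to 77.6), against 52.9% of the other droplets (48.5 to 57.3). These intervals pool both brains, and within each brain they overlapped. The shares were 76.2% (60.55 to 87.95) against 62.9% (55.9 to 69.55) in metastasis 1. In metastasis 2 they were 63.2% (49.3 to 75.55) against 46.3% (40.7 to 52.0). In the edgeR test, which compares levels over brains, Ly6c2 did not pass (0.20, adjusted p = 0.69).

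Within the 120 droplets, both kinds of RNA varied widely. The macrophage list had 4 to 429 UMIs with a median of 111, and the T cell signalling list had 0 to 48 with a median of 5. A signalling UMI was present in 116 of the droplets and in none of the other 4. Tyrobp, an adaptor of myeloid and natural killer cells, had a UMI in all 120, and C1qa, C1qb or C1qc in 95. Without thinning, the medians of Lyz2 were 47 UMIs in metastasis 1 and 33 in metastasis 2.

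Interferon response, checkpoint ligand, uptake and adhesion genes, which myeloid cells use in contact with T cells and dying cells, were mostly not called. Of 19 interferon response genes 1 was lower, the chemokine gene Cxcl10 (-0.62, adjusted p = 0.017, and 0.061 against UMI-matched droplets), and none was higher. None of 8 checkpoint ligand genes tested passed, with Cd274, encoding PD-L1, at 0.01 (adjusted p = 1.00) and Vsir, encoding VISTA, at 0.25 (adjusted p = 0.72). Of 10 genes for the uptake of dying cells, 1 was lower, Mfge8 (-2.08, adjusted p = 0.047, and 0.17 against UMI-matched droplets), which had 2 UMIs in each brain's CD3-bearing droplets. Of 8 adhesion genes, Cd2, which is itself a T cell gene, was the 1 that passed. Of 10 monocyte genes, Chil3, a chitinase-like gene of monocytes, was lower (-0.81, adjusted p = 0.00026, and 0.108 with DESeq2). None of 6 dendritic cell genes tested passed, and Xcr1 had 0 UMIs in the 120 droplets.

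Markers of other cell types were low in the CD3-bearing droplets or came mostly from few of them, and their part in the results above was not tested. Neutrophil genes S100a8 and S100a9 were lower than in the other droplets of cluster 2 (-3.53 and -4.34), where they were mostly in metastasis 1. S100a8 had 35.3 and 11.6 CPM, against 495 and 55.3 CPM in the other droplets. In metastasis 1 the 658 S100a8 UMIs of the other droplets came from 28 of 665, and their 578 S100a9 UMIs from 20. Of the 53 CD3-bearing droplets there, 3 had S100a8 and 2 had S100a9, so the share of droplets with a UMI was not lower. In metastasis 2 S100a8 was in 59 of 996 other and 2 of 67 CD3-bearing droplets, and S100a9 in 31 and 0. Without the brain as a block, the adjusted p of each was 0.23. The immunoglobulin genes Ighm (0.96, adjusted p = 0.039) and Igkc (1.90) were higher, and 44 of the 68 Igkc UMIs came from a single droplet. Krt8, a keratin of the large clusters, had 50.5 and 46.3 CPM, against 83.5 and 104 CPM (-1.03, adjusted p = 0.061). Microglia genes were not called in either direction (8 tested). Of 11 cell cycle genes, Top2a (1.37) and Hmgb2 (0.55) were higher, and both missed the threshold with DESeq2. None of the 2 choroid plexus genes or the single endothelial gene tested was called. Of 6 ribosomal and housekeeping genes, Actb, encoding beta actin, was lower (-0.80), and against UMI-matched droplets with DESeq2 its adjusted p was 0.41. The other genes named by size outside the lists were Gm8369, higher by 3.08, and Notch2 (-1.17), Otub1 (-1.09), Serpinh1 (-1.07), Ptges3 (-0.95), Cdk4 (-0.90) and Mcemp1 (-0.88), which were lower and each missed the threshold with DESeq2.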

How the data were processed

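RNA and antibody tags were read from a single pooled 10x library, and all 12421 cell barcodes in it are distinct. The deposited RNA and tag tables hold raw UMI and tag counts per cell, which the authors did not normalise, as their whole-number values show. The deposited percent of mitochondrial UMIs, the cluster numbers and the single-brain hashing calls are the authors' own. The submitters' processing notes name Cell Ranger 3.0.2 and Seurat 3.0.1, without clustering settings. The 2 brains with metastases held 5360 and 6174 cells with medians of 7294 and 7707.5 UMIs, and the naive brains 572 and 315 cells with medians of 1393.5 and 1230.

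The chosen droplets and the 24 gene lists were fixed with earlier results of these data known. UMI counts were summed per brain and set and tested with edgeR 4.0.16 (R 4.3.3; TMM, filterByExpr, brain as a block, adjusted p under 0.05), without the 4 genes of the choice. The pairing comes from the design, since both sets of droplets were taken from the same brains. CPM values are computed here as unscaled shares, and log2 differences come from the fit. SE is the standard error of the fitted difference. In simulated data of the same size with 6751 genes, 81 of 100 genes changed 4-fold and 86 of 100 changed 8-fold were recovered, with 3 wrong calls of 170. Every simulated sum was drawn from the same gene shares, with a single dispersion for all genes. The simulation thus held no difference between brains and no UMIs concentrated in single droplets. It cannot tell how many calls in the real data are wrong. Genes were named by list, or as the 10 with the largest change in each direction among those passing, at a mean of 50 CPM or more and the same direction in both brains. Those 10 were Xcl1, Tnfrsf4, Thy1, Tnfrsf18, Trbc2, Lat, Ikzf2, Gm8369, Lck and Ptprcap among the higher, and S100a9, S100a8, Notch2, Otub1, Serpinh1, Ptges3, Cdk4, Mcemp1, Chil3 and Actb among the lower. DESeq2 1.42.0, other filters and thresholds, thinning and UMI-matched droplets were tried as alternatives. Scrublet was run as implemented in scanpy 1.11.5, no droplet was removed for its call, and it called 1.77% of all cells. Free RNA was not corrected for.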

Additional observations from a re-analysis of the deposited data

How the results depend on the processing

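Counts of genes higher and lower in CD3-bearing than in other droplets of cluster 2, 95 and 19, were 25 and 3 with DESeq2, 61 and 37 without the filter on low counts, 45 and 2 with no replicate block, 33 and 6 at a common depth, 63 and 29 against UMI-matched droplets (an alternative chosen after seeing the data) and 13 and 2 with DESeq2 on those. Lower genes numbered 34 against droplets with 0 CD3 UMIs, 59 and 29 for droplets with at least 1 and at least 3 CD3 UMIs, and 48 without Scrublet calls. The 17 higher signalling genes became 9 with DESeq2, 10 at a common depth and 6 with DESeq2 on UMI-matched droplets. Lower macrophage genes, 0 of 20 in the report's first comparison, were 1 at a common depth, 2 without Scrublet calls and 7 against UMI-matched droplets. Lower MHC class II genes, also 0, were 2, 1 and 4 under those settings and 1 with DESeq2 on UMI-matched droplets. The median macrophage difference of -0.14 was -0.23 without the filter, -0.032 from 1 CD3 UMI, -0.27 at a common depth, -0.24 without Scrublet calls, -0.30 against UMI-matched droplets and -0.28 with DESeq2 on those, and between -0.17 and -0.06 in single brains.

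Signalling UMIs per 100 CD3 UMIs, 169 in cluster 2 and 143 in cluster 8 over both brains, were 162 and 123 at a common depth and 185 and 166 from 1 CD3 UMI, and 132 in cluster 8 from 3 CD3 UMIs. Single brains gave 166 to 173 in cluster 2 and 141 to 145 in cluster 8. The median CD11b tag, 2.13 times that of other droplets of cluster 2 (1.99 to 2.27 in single brains), was 0.8 times as a share of the 6 tags and 0.764 times against UMI-matched droplets, so it reversed. It was 1.61 times by the mean and 1.83 times from 3 CD3 UMIs. The CD45 ratio of 3.33 (3.09 to 3.58) was 1.24 as a share, 2.27 by the mean and 1.22 against UMI-matched droplets. The CD86 ratio of 2.31 (2.29 to 2.33) was 1.19, 2.10 and, reversed, 0.971 under the same settings, and 2 and 2.54 from 1 and 3 CD3 UMIs. The excess of droplets with a high CD4 tag, 47.6 percentage points (47.5 to 47.6), was 56.5 with the 95th percentile, 34.6 and 52.9 from 1 and 3 CD3 UMIs and 42.3 against UMI-matched droplets. For CD3e it was 29.3 (28.3 to 30.4), and 42.1, 23.8, 36.5 and 25.1 under those settings. CD3-bearing droplets were 6.84% of cluster 2 as a mean of the brains (6.30 to 7.38), 12.8% from 1 CD3 UMI, 3.83% from 3 and 9.47% at a common depth. Their median UMIs, 2.46 times those of the others (2.42 to 2.50), were 2.07 and 2.54 times from 1 and 3 CD3 UMIs. Except where a setting changes the droplets or genes used, the cause was not tested.

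Of the 52 genes followed through the alternatives, 30 missed the threshold with DESeq2, 19 with no replicate block, and 25 of the 39 with a value with DESeq2 on UMI-matched droplets. None changed direction under an alternative that gave it a value, and the 20 genes named by size were chosen for agreeing in both brains. Depth limits the per-droplet statements: 53 of the 120 droplets had 2 CD3 UMIs, and CD3e tags were near 0.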

Other observations

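Several genes of T cells outside the lists were higher in CD3-bearing than in other droplets of cluster 2, and were chosen here after their values were seen. Zap70, the kinase recruited to the phosphorylated CD3 chains, had a log2 difference of 4.29. Its TMM-scaled levels were 35.7 and 62.2 CPM in the brains, against 4.76 and 1.01 CPM. Cxcr6, a chemokine receptor of T cells resident in tissue, had 4.0, and Rora, a nuclear receptor of T cell subsets, 2.71. In the other droplets Zap70 had only 6 and 2 UMIs in the brains, Cxcr6 5 and 1, and Rora 3 and 12. They entered the test through the CD3-bearing sums, so their differences are descriptions. The Gimap genes, small GTPases of lymphocytes, were higher for Gimap5 (2.73), Gimap7 (2.54), Gimap4 (2.32), Gimap1 (2.28) and Gimap6 (2.09).

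Some single droplets among the 120 carried most UMIs of a gene of another cell type. One with 3 CD3 UMIs held 33 of the 34 UMIs of Cldn5, a tight junction gene of endothelial cells, and another with 2 held 784 of the 1527 UMIs of Ttr, the choroid plexus gene for transthyretin. Scrublet called neither.

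The CD3e tag reached 21201 counts in a droplet of cluster 8 in metastasis 2 that had 3 CD3 UMIs and 1016 UMIs in all, while the next highest droplet, in cluster 2, had 47 counts and 0 CD3 UMIs.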
